A study of Mus musculus with 16 samples.

Results

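The genes of lipoprotein transport and handling Apoc3, Apoc1, Apoe, Apoa1, Apod, Apob, Pon1, Pltp, Lpl and Vldlr, were followed through mouse white adipose tissue. They are 10 of the 18193 genes that the arrays measured with a probe set assigned to 1 gene symbol, and 22 probe sets represent them. They were selected on their measured values in these 4 groups of arrays, above all the large difference in Apoc3, and on their shared role. Levels and differences of the 10 genes are therefore given as a description, without p-values, and counts of them past the threshold used for all genes are not read as evidence. Of the 10, 9 cleared the minimum for a gene to be tested, 4 or more arrays at a log2 of 4, and Apob did not.

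The study asked how loss of SIRT1, an NAD-dependent deacetylase, and a high fat diet alter gene expression in fat, with 4 arrays for each combination. All mice were of the C57BL6/J background, began their diet at 4 weeks of age and were sampled after 8 weeks, at 12 weeks of age. Wild-type mice had no Cre transgene. Knockout mice lost Sirt1 through Cre expressed from the FABP4 promoter, which is directed to adipocytes. A group with Cre and an intact Sirt1 gene was not analysed here, so transgene and deletion cannot be told apart. The labels name neither the depot nor whether replicates were separate mice, and p-values therefore measure only the spread between these samples.

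Lipoproteins carry triglyceride and cholesterol through the blood in particles wrapped by apolipoproteins. Apob is the structural protein of the large triglyceride-rich particles, whereas the small exchangeable apolipoproteins move between particles and steer their fate. Lipoprotein lipase, made by adipocytes and held on the capillary wall, frees fatty acids for uptake into fat; APOC2 activates the enzyme and APOC3 inhibits it. Apoc3, Apoa1 and Apob are known mainly as liver and intestinal genes, while Apoe, Lpl, Pltp and Vldlr are well known in fat and macrophages.

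Adipocyte markers were present, with a summed level of 15.71 to 16.14 on the log2 scale over the 16 arrays. Of 14 hepatocyte markers 8 lay under a log2 of 4 in every array, as did 6 of 8 enterocyte markers. In 3 arrays Fabp1 and Apoa2, both known from the liver and Fabp1 also from the intestine, stood out. Fabp1 read 6.85 in wild-type low fat replicate 3, 6.51 in knockout low fat replicate 4 and 7.20 in knockout high fat replicate 3, and 2.26 to 4.13 elsewhere. Apoa2 read 6.32, 5.38 and 6.34 in the same arrays. The muscle arrays are the 5 in which Tnnt3, a skeletal muscle transcript, read a log2 of 8 or more, at 8.20 to 10.52. On the low fat diet these were wild-type replicates 3 and 4 and knockout replicate 2, and on the high fat diet wild-type replicate 3 and knockout replicate 4. Other arrays were not free of such transcripts, and Acta1 read 9.22 or more in every array. A muscle marker list summed to 12.38 in wild-type high fat replicate 4, not among the 5. In knockout high fat replicate 4, which is among them, it summed to 12.30. An epithelial marker list summed to 13.22 in wild-type high fat replicate 4. The same array had the highest Ttr, 9.57, and the highest hepatocyte list sum, 10.06, while its Fabp1 was 3.70 and its Apoc3 5.74. Results that move without these arrays are given both ways. Fewer arrays are then fitted, so a lost call does not by itself show that a difference moved. Sirt1 itself cannot check the labels, because the position of its probe set relative to the deleted part is not known.

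Apoc3, whose protein inhibits lipoprotein lipase and slows the clearance of particle remnants, was abundant in a single group. The wild-type low fat arrays read 11.59, 9.85, 11.24 and 9.04. The knockout low fat arrays read 6.45, 6.88, 6.44 and 7.28, and the wild-type high fat arrays 5.76, 5.68, 5.49 and 5.74. The knockout high fat arrays read 5.78, 5.92, 6.85 and 6.78. The lowest wild-type low fat array thus lay above every array of the other groups, although that group also had the widest spread, 10.43 ± 1.19 (SD, n = 4). On the high fat diet the wild-type level was 4.76 ± 0.43 (SE) lower on the log2 scale, a 27.1-fold difference. In the knockout on the low fat diet it was 12.7-fold lower, with a difference of -3.67 ± 0.43 (SE). Next came knockout low fat at 6.76 ± 0.40 and knockout high fat at 6.33 ± 0.56 (SD, n = 4), which overlapped and differed by -0.43 (95% interval -1.35 to 0.49). Wild-type high fat was lowest at 5.67 ± 0.12, below all knockout high fat arrays, yet the interval of that difference, 0.67, ran from -0.25 to 1.58. The interaction, the diet difference in knockout minus that in wild type, was 4.33 ± 0.61 (SE). In bulk tissue, fewer cells of a type and less RNA per cell cannot be told apart.

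Liver-associated transcripts did not all run with Apoc3 from array to array. Wild-type low fat replicates 1 and 2, at 11.59 and 9.85 for Apoc3, both read 2.32 for Fabp1. Alb, another liver transcript, read 6.42 and 6.43 there and 8.20 and 7.43 in wild-type low fat replicates 3 and 4. It read 6.58 to 8.39 in knockout low fat arrays, 5.20 to 6.39 in wild-type high fat arrays and 4.02 to 7.09 in knockout high fat arrays. For Alb, as for Apoc3, every wild-type low fat array thus lay above every wild-type high fat array. The part of liver transcripts in the Apoc3 difference was not tested. Without the 3 liver-associated arrays the differences were -4.49 for diet in wild type and -3.57 for knockout on the low fat diet. Without the 5 muscle arrays they were -4.99 and -3.99. Over the 16 arrays the 5 genes outside the list whose log2 values correlated best with Apoc3 were Gde1, Rgs3, Pdcd2, Gucd1 and Acot3, with Pearson's r of 0.973, 0.970, 0.966, 0.963 and 0.958. These arrays share 4 groups, so the correlations largely restate the group pattern. Acot3, an acyl-CoA thioesterase, averaged 7.20 ± 0.64 (SD, n = 4) in wild-type low fat arrays against 2.71, 1.81 and 1.62 in knockout low fat, wild-type high fat and knockout high fat.

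**Figure D1:**
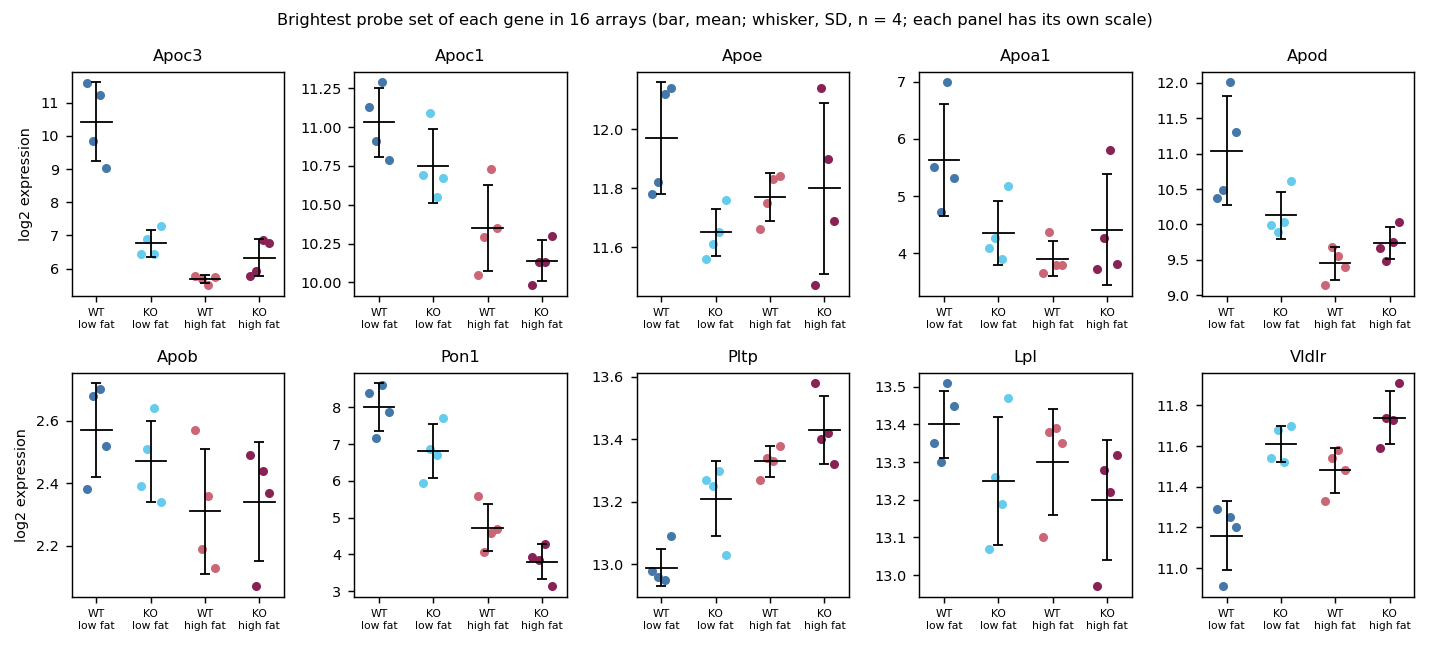
Log2 expression (y axis, own scale in each panel) of the brightest probe set of each of the 10 genes in the 4 groups; points are arrays, bars means and whiskers SD (n = 4). Apoc3 reads 9.04 to 11.59 in wild-type low fat arrays and at most 7.28 elsewhere, and Pon1 is low on the high fat diet in both genotypes.

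Apoa1, the main protein of high density lipoprotein, adjoins Apoc3 on mouse chromosome 9, where the gene order is Apoa1, Apoc3, Apoa4 and Apoa5 in the RefSeq table of GRCm38.p6. Its brightest probe set read 5.50, 4.72, 6.99 and 5.32 in wild-type low fat arrays and 4.09, 4.26, 3.91 and 5.18 in knockout low fat arrays. It read 3.66, 4.37, 3.80 and 3.80 in wild-type high fat arrays and 3.73, 4.26, 5.81 and 3.82 in knockout high fat arrays. The highest array of 3 groups was the one with liver-associated transcripts. Diet in wild type gave -1.73 ± 0.47 (SE) and the groups did not overlap. Without the liver-associated arrays the difference was -1.27 ± 0.22, and knockout on the low fat diet moved from -1.27 to -1.09. The 0.50 higher mean in the knockout on the high fat diet fell to 0.03 without them. Leaving out the muscle arrays instead gave -1.16 ± 0.55 (SE) for diet in wild type. Between genotypes it gave -0.72 ± 0.55 on low fat and 0.66 ± 0.49 on high fat food. All 4 Apoa1 probe sets gave a lower mean for diet in wild type (-1.73 to -1.30) and for knockout on the low fat diet (-1.27 to -1.01). Apoa4 and Apoa5, the other genes of the cluster, stayed between 2.24 and 4.34 and were below the minimum.

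Apoc1 and Apoe lie side by side on chromosome 7 next to Apoc4 and Apoc2. Apoc1, a small apolipoprotein that interferes with receptor uptake of particles, read 11.13, 10.91, 11.29 and 10.79 in wild-type low fat and 10.05, 10.29, 10.73 and 10.35 in wild-type high fat arrays. In the knockout it read 10.69, 11.09, 10.55 and 10.67 on the low fat and 9.98, 10.13, 10.13 and 10.30 on the high fat diet. The diets did not overlap in either genotype, with differences of -0.68 ± 0.16 and -0.62 ± 0.16 (SE). The genotypes overlapped on both diets, at -0.28 and -0.22.

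Apoe, the ligand by which remnants bind their receptors, differed little between groups. Wild-type low fat arrays read 11.78, 11.82, 12.12 and 12.14 and knockout low fat arrays 11.56, 11.61, 11.65 and 11.76. The high fat arrays read 11.66, 11.75, 11.83 and 11.84 in wild type and 11.47, 12.14, 11.90 and 11.69 in the knockout. Only the genotypes on the low fat diet did not overlap among the 4 comparisons, and their difference was -0.32 ± 0.14 (SE). Without the muscle arrays it was -0.14 ± 0.19.

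Apod, a lipocalin rather than a typical apolipoprotein, carries small lipids such as arachidonic acid. Its brighter probe set read 10.37, 10.48, 12.01 and 11.30 in wild-type low fat and 9.99, 9.89, 10.04 and 10.62 in knockout low fat arrays. It read 9.14, 9.68, 9.56 and 9.40 in wild-type high fat and 9.67, 9.49, 9.75 and 10.03 in knockout high fat arrays. The 2 highest arrays were wild-type low fat replicates 3 and 4, both muscle arrays, and replicate 3 also had liver-associated transcripts. The other muscle arrays differed in their rank. Knockout high fat replicate 4 was the highest of its group at 10.03, and wild-type high fat replicate 3 was not, at 9.56. Knockout low fat replicate 2 was the lowest of its group at 9.89. Pearson's r of Apod with the muscle marker sum was 0.296 over the 16 arrays, and the part of muscle was not tested. Diet in wild type gave -1.59 ± 0.29 (SE), and -1.02 ± 0.22 without the muscle arrays. Knockout on the low fat diet gave -0.90, and -0.21 ± 0.22 without them. The interaction moved from 1.20 to 0.44. The dimmer probe set gave -1.86 for diet in wild type and -0.82 for knockout on the low fat diet, with all arrays included. Its wild-type low fat arrays read 5.09, 4.70, 6.87 and 6.99, again highest in the muscle replicates 3 and 4. Replicates 1 and 2 lay within the knockout low fat range of 4.68 to 5.80.

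Apob was not measurable here. Its 2 probe sets read 1.96 to 2.95 in all 16 arrays, and the groups overlapped in every comparison.

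**Figure D2:**
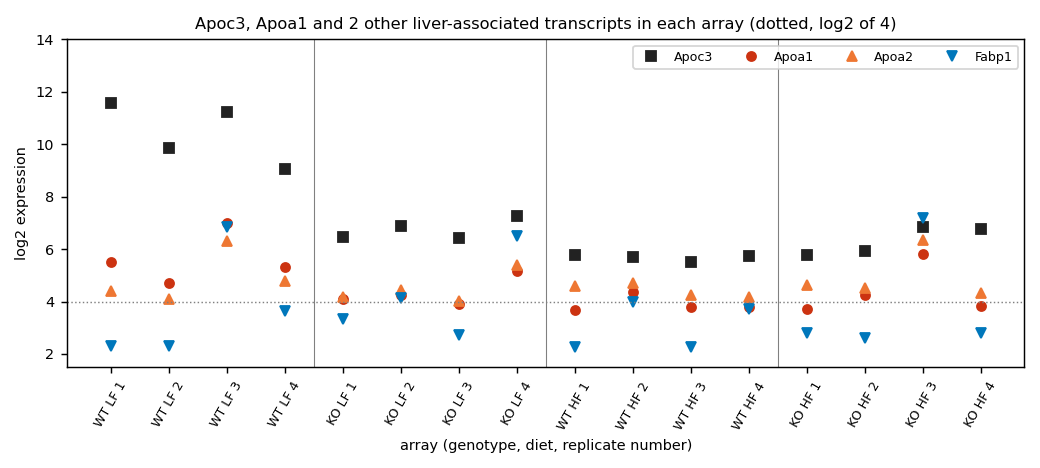
Log2 expression (y axis) of Apoc3, Apoa1, Apoa2 and Fabp1 in each of the 16 arrays (x axis, genotype, diet and replicate; vertical lines part the groups; dotted line, log2 of 4). Fabp1 reads 6.51 to 7.20 in 3 arrays and at most 4.13 elsewhere, while Apoc3 is high in all 4 wild-type low fat arrays.

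Pon1, the HDL-borne paraoxonase that hydrolyses oxidized lipids and lactones, was low on the high fat diet in both genotypes. Wild-type arrays read 8.40, 7.16, 8.60 and 7.88 on the low fat and 5.60, 4.07, 4.58 and 4.68 on the high fat diet. Knockout arrays read 5.94, 6.86, 6.71 and 7.72 on the low fat and 3.92, 3.85, 4.29 and 3.13 on the high fat diet. The diets did not overlap in either genotype. The differences were -3.28 ± 0.40 (SE), 9.69-fold, in wild type and -3.01 ± 0.40, 8.04-fold, in the knockout. With values under a log2 of 4 raised to 4, the knockout difference was -2.73. Genotypes overlapped on both diets, at -1.20 ± 0.40 on the low fat and -0.93 ± 0.40 on the high fat diet, the latter -0.66 with the floor. The interaction was 0.27 (95% interval -0.92 to 1.46). A brown fat marker list also summed lower on the high fat diet, at 8.31 to 9.90 against 10.47 to 12.92 on the low fat diet in the 2 genotypes together. Over the 16 arrays Pearson's r of Pon1 was 0.872 with this sum and -0.893 with the sum of a macrophage marker list. The part of either in the Pon1 difference was not tested.

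Sequences from before the start of Pon1 and of its neighbour Pon3 are shown because both read lower on the high fat diet in both genotypes, and those of Apoa1 and Pltp as members that differed with diet in wild type in opposite directions. These 4 were picked after their values were seen. The Pon1 window runs from 241 to 42 and the Pon3 window from 250 to 53 bases before the start. Those of Apoa1 and Pltp run from 200 to 1. Each is RefSeq sequence of GRCm38.p6, 5′ to 3′ along the gene, for Pon1 (chr6:5193988-5194187, minus strand), Pon3 (chr6:5256286-5256483, minus strand), Apoa1 (chr9:46228430-46228629, plus strand) and Pltp (chr2:164857709-164857908, minus strand), with motif matches in capitals.
Pon1: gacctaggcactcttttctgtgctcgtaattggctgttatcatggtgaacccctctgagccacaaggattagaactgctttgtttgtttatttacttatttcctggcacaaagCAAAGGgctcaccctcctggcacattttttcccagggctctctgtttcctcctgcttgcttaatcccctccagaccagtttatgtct
Pon3: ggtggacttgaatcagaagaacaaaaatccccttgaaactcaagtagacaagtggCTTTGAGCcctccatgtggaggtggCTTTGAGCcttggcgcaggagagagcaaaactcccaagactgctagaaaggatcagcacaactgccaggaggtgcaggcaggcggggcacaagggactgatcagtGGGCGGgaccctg
Apoa1: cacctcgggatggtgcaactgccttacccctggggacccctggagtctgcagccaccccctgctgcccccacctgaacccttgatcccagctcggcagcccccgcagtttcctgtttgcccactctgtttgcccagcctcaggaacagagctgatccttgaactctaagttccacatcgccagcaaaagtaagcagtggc
Pltp: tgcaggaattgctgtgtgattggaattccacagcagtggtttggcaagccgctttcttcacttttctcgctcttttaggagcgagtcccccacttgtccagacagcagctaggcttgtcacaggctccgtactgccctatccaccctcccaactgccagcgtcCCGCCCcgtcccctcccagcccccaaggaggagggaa

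In all, 9 motifs were searched on both strands of the 250 bases before the start, in the 7 of the 10 genes with an entry and in all 32851 entries of the table. The nuclear receptor half-site AGGTCA was in 14% of all windows, the E-box CACGTG in 6.02%, the GC box GGGCGG in 32.7%, CCTTTG in 17.6%, GATAAG in 6.55% and CTTTGANC in 3.47%. CAAAGGTCA was in 0.426% and TGAACTTTG in 0.335%, and a long motif of a variant half-site, a free spacer and AGGTCA in 0.00304%. Both CAAAGGTCA and the long motif contain AGGTCA. Among the 7 genes, GGGCGG matched in Pltp and Vldlr, CCTTTG in Apob, Apoe and Pon1, and GATAAG in Apob, and 6 of the 9 motifs matched in none. Of the printed windows Pon1 holds CCTTTG on the opposite strand, Pltp holds GGGCGG on the opposite strand, Pon3 holds GGGCGG and 2 matches of CTTTGANC, and Apoa1 holds none of the 9. These are matches of letters in a window and say nothing about binding.

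Pltp, the phospholipid transfer protein that remodels HDL, was among the brightest transcripts. Its brighter probe set read 12.98, 12.96, 12.95 and 13.09 in wild-type low fat and 13.27, 13.34, 13.33 and 13.38 in wild-type high fat arrays. Knockout arrays read 13.27, 13.25, 13.30 and 13.03 on the low fat and 13.58, 13.40, 13.42 and 13.32 on the high fat diet. The high fat arrays lay above the low fat arrays in both genotypes, by 0.34 ± 0.09 and 0.22 ± 0.09 (SE). The highest value on any array was 14.2, so this probe set lies near the top of the scale. The dimmer probe set gave larger differences, 0.71 and 0.73 for the diet and 0.37 and 0.40 for the knockout on the low and high fat diets. With it the diets overlapped in wild type but not in the knockout, and the genotypes overlapped on both diets. A macrophage marker list summed to 14.71 to 15.17 in wild-type low fat, 15.20 to 15.40 in knockout low fat, 15.38 to 15.61 in wild-type high fat and 15.74 to 15.86 in knockout high fat arrays, the same order of groups. Macrophages are known to make Pltp and Apoe, and the part of these cells was not tested.

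Lpl, the lipase itself, read 12.97 to 13.51 with its brighter and 12.79 to 13.40 with its dimmer probe set over the 16 arrays. All 4 differences of the brighter probe set lay between -0.16 and -0.05, and the groups overlapped in each. Their 95% intervals lay within -0.40 to 0.20. Like Pltp, Lpl lies near the top of the scale.

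Vldlr, the receptor that binds triglyceride-rich particles and helps lipase act on them, was higher in the knockout. Its brightest probe set read 11.29, 10.91, 11.25 and 11.20 in wild-type low fat and 11.54, 11.68, 11.52 and 11.70 in knockout low fat arrays. On the high fat diet it read 11.33, 11.54, 11.58 and 11.48 in wild type and 11.59, 11.74, 11.73 and 11.91 in the knockout. The genotypes did not overlap on either diet, with differences of 0.45 ± 0.11 and 0.26 ± 0.11 (SE). Over the 6 Vldlr probe sets the knockout mean was higher in all 6 on both diets, by 0.32 to 0.95 on the low fat and 0.22 to 0.55 on the high fat diet. The genotypes did not overlap in 5 of the 6 on the low fat and 4 of the 6 on the high fat diet. Diet in wild type gave 0.13 to 0.66, and the diets did not overlap in 3 of the 6, the brightest (0.32) among them. Diet in the knockout gave -0.04 to 0.27 with overlap in all 6.

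**Figure D3:**
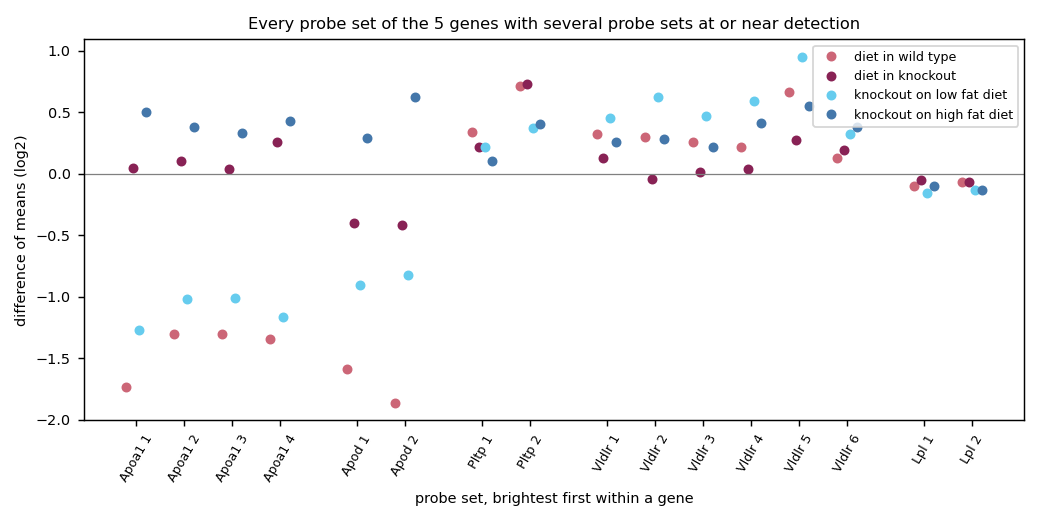
Difference of group means (y axis, log2) for every probe set (x axis, brightest first) of the 5 genes with several probe sets at or near detection; colours are the 4 comparisons. The 6 Vldlr probe sets lie above 0 for knockout on the low fat diet (0.32 to 0.95), and the 4 Apoa1 probe sets lie below 0 for diet in wild type.

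Across the 9 genes above the minimum, 7 passed the adjusted p threshold of 0.05 (limma, Benjamini-Hochberg over all genes) for diet in wild type, 2 higher and 5 lower, and 7 did not overlap between groups. Of all 12078 genes tested, 35.6% passed (20.5% higher, 15.2% lower) and 30.8% did not overlap. For diet in the knockout 2 passed, both lower, and 3 did not overlap, against 29.2% (15.6% higher, 13.5% lower) and 33.1% of all genes. For knockout on the low fat diet 4 passed, 1 higher and 3 lower, and 3 did not overlap, against 18.9% (11.7% higher, 7.24% lower) and 17.9%. For knockout on the high fat diet 0 passed and 2 did not overlap, against 15.1% (8.58% higher, 6.47% lower) and 26.1%. For the interaction 1 passed, Apoc3, with a positive value, against 13.0% (5.12% positive, 7.87% negative). Because these comparisons chose the list, nothing is read from the counts. The median difference of the 9 genes was -0.68, -0.05, -0.32 and 0.10 in the 4 comparisons in that order, and that of all genes 0.04, -0.02, 0.04 and 0.

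**Figure D4:**
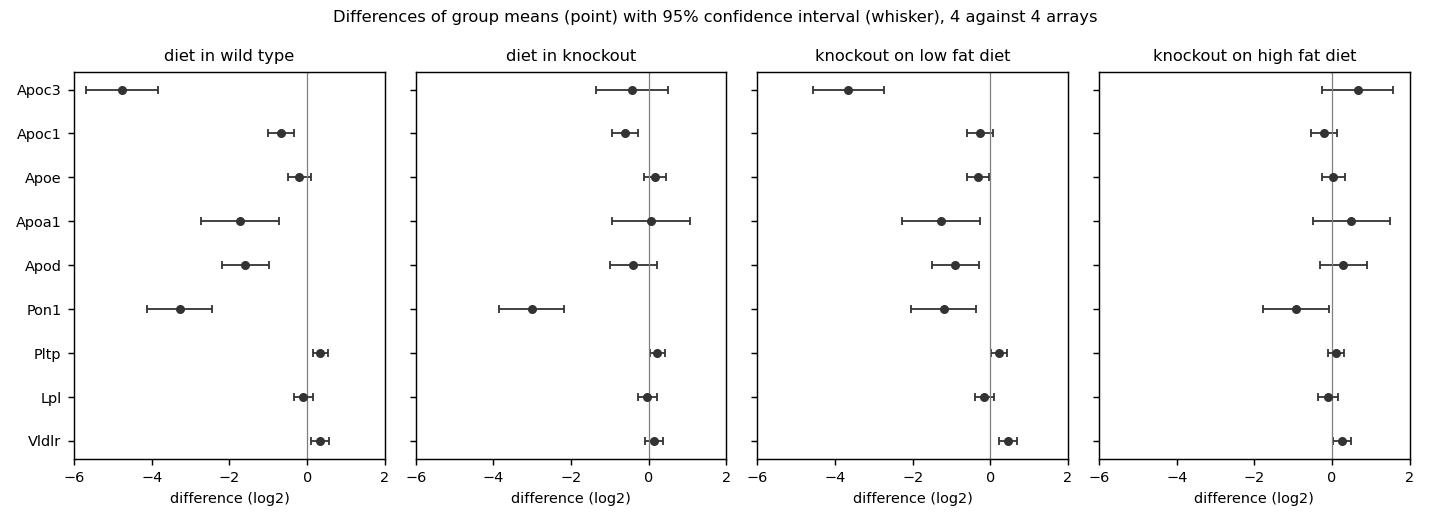
Difference of group means (x axis, log2; whiskers, 95% confidence intervals, 4 against 4 arrays) for the 9 genes above the minimum in each of the 4 comparisons. Apoc3 is at -4.76 for diet in wild type and -3.67 for knockout on the low fat diet, and Pon1 at -3.28 and -3.01 for diet in the 2 genotypes.

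Genes that act with these 10 were taken from lists of other apolipoproteins, lipase partners, receptors, particle assembly, HDL and cholesterol handling, and regulators. Of 75 listed, 68 had a probe set and 54 were tested. Diet in wild type changed 24 (9 higher, 15 lower), diet in the knockout 25 (11 and 14), the knockout on the low fat diet 11 (3 and 8) and the knockout on the high fat diet 15 (8 and 7), and the interaction passed for 11. These are 44.4%, 46.3%, 20.4%, 27.8% and 20.4% of the 54 related genes, beside 35.6%, 29.2%, 18.9%, 15.1% and 13.0% of all 12078 genes. The lists were chosen with earlier results of these data known, so nothing is read from the difference in shares. All adjusted p-values that follow are limma values over all genes tested.

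Apoc2, the activator of lipoprotein lipase, moved in opposite directions with diet in the genotypes. It read 9.51, 9.35, 10.46 and 10.24 in wild-type low fat and 8.38, 8.49, 8.34 and 8.45 in wild-type high fat arrays. Knockout arrays read 8.66, 8.38, 8.60 and 9.41 on the low fat and 9.65, 9.66, 9.85 and 10.01 on the high fat diet. It fell in wild type by 1.48 ± 0.24 (SE; adjusted p = 0.000207), rose in the knockout by 1.03 ± 0.24 (adjusted p = 0.00388), and the interaction was 2.51 ± 0.33 (adjusted p = 0.000321). On the high fat diet the knockout was higher by 1.38 (adjusted p = 0.00135). On the low fat diet it was lower by -1.13 (adjusted p = 0.00387), a call lost without the muscle arrays (-0.54, adjusted p = 0.175). Apoc4, its neighbour, rose with diet in the knockout by 1.91 (adjusted p = 0.00516). It read 3.64 to 5.11 in knockout low fat arrays, close to the minimum, and 5.84 to 6.78 in knockout high fat arrays. Its interaction of 2.88 (adjusted p = 0.00927) was 1.83 (adjusted p = 0.173) without the muscle arrays. RefSeq also lists Gm44805, a gene spanning Apoc4 and Apoc2, and the arrays do not say which transcript a signal comes from. Apobec1, the enzyme that edits Apob messenger RNA, rose with diet in the knockout by 1.70 (adjusted p = 0.000187) and was 1.64 higher in the knockout on the high fat diet (adjusted p = 0.000936).

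Among genes of assembly and HDL, Mttp, which loads lipid onto APOB, fell with diet in both genotypes, with differences of -1.79 (adjusted p = 4.34e-06) and -1.59 (adjusted p = 1.34e-05). Pon3, the paralogue beside Pon1, also fell in both, with -0.66 (adjusted p = 3.25e-05) and -0.88 (adjusted p = 3.38e-06), while Pon2 differed by 0.41 and 0.40 and did not pass. Npc1, the lysosomal cholesterol exporter, fell with diet in wild type by 1.80 (adjusted p = 4.1e-06), and its interaction was 2.19 (adjusted p = 0.000133). Abca1, which loads cholesterol onto APOA1, passed in none of the 5 comparisons, and its pairwise differences ran from -0.28 to 0.02.

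Among receptors and lipase partners, Apobr, a macrophage receptor for APOB-containing particles, rose in all 4 comparisons by 1.13 to 1.36 (adjusted p from 0.000165 to 0.00165). Pcsk6, a convertase that can cleave lipases, fell with diet in the knockout by 1.74 (adjusted p = 1.85e-05), with an interaction of -1.81 (adjusted p = 0.00117). All 5 mesothelial markers also fell with diet in the knockout and were lower in the knockout on the high fat diet. Their sum was 9.90 to 11.10 in knockout high fat arrays and 11.07 to 12.64 in the other groups, and their part was not tested. Angptl4, an inhibitor of lipoprotein lipase, passed in none of the 5 comparisons (-0.08 to 0.22). Gpihbp1, which anchors the lipase to capillaries, was -0.48 in the knockout on the high fat diet (adjusted p = 0.0483), and leaving out any 1 of 12 of the 16 arrays ended that call. Of 6 endothelial markers 4 were lower in the same comparison, with sums of 10.57 to 11.35 in knockout and 11.57 to 11.82 in wild-type arrays, and their part was not tested. Lrp1, a remnant receptor, gave an interaction of 0.75 (adjusted p = 0.00895), which was 0.63 (adjusted p = 0.176) without the muscle arrays.

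Of 13 regulators tested, diet in wild type lowered 8 and raised 1, together 69.2%, beside 15.2% lower and 20.5% higher over all genes. Their median difference was -0.59 against 0.04 over all genes. Diet in the knockout lowered 6 and raised 1, together 53.8%, beside 13.5% lower and 15.6% higher over all genes. Earlier results of these data were known when the list was made, so nothing is read from these shares. Ppara, a nuclear receptor of fatty acid oxidation known to repress Apoc3 in liver, fell with diet in both genotypes. The fall was 2.30 (adjusted p = 4.3e-05) in wild type and 1.87 (adjusted p = 0.000296) in the knockout. Its high fat arrays read 3.94 to 4.88 in wild type and 3.94 to 4.45 in the knockout. These lie close to the minimum, so the size of the fall is uncertain. Nr1d1, a clock repressor also known to repress Apoc3, fell by 1.98 (adjusted p = 3.62e-05) and 1.83 (adjusted p = 7.78e-05). It was also lower in the knockout, with -1.29 on the low fat (adjusted p = 0.00291) and -1.14 on the high fat diet (adjusted p = 0.00761). The high fat call was lost without the muscle arrays (-1.01, adjusted p = 0.0756). Pparg, the master regulator of adipocytes, fell with diet by 0.98 (adjusted p = 0.000155) in wild type. In the knockout on the low fat diet Pparg was -0.72 (adjusted p = 0.0038), and -0.69 (adjusted p = 0.0991) without the muscle arrays. The call was thus lost while the difference hardly moved. Nr1h3, the oxysterol receptor LXR alpha, fell with diet in wild type by 0.69 (adjusted p = 0.011), and was -0.56 (adjusted p = 0.0667) without the muscle arrays. Hnf4a, a hepatic activator of Apoc3, read 2.10 to 2.45 in all arrays and was below the minimum.

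**Figure D5:**
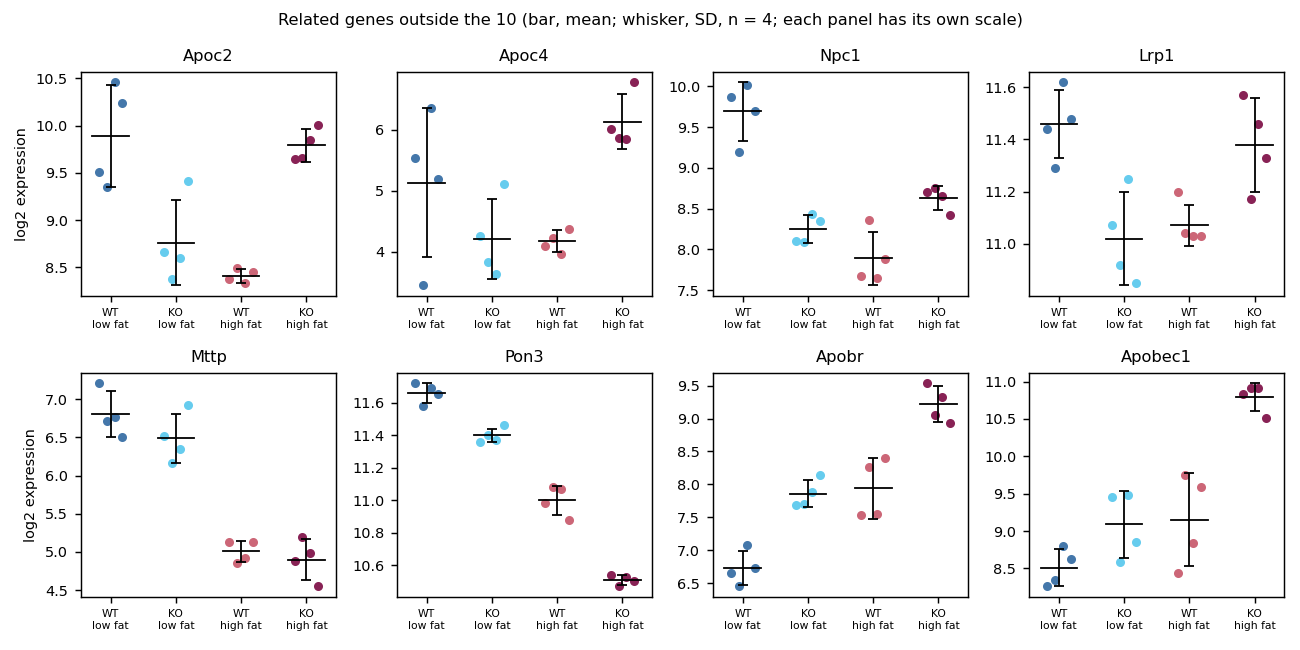
Log2 expression (y axis, own scale in each panel) of 8 related genes in the 4 groups; points are arrays, bars means and whiskers SD (n = 4). Apoc2 averages 9.89 and 9.79 in wild-type low fat and knockout high fat arrays against 8.76 and 8.41 in knockout low fat and wild-type high fat arrays, and Mttp and Pon3 are lower on the high fat diet in both genotypes.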

How the data were processed

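Biotin-labelled RNA of 16 white adipose samples was hybridized to Affymetrix mouse arrays. The authors deposited log2 values per probe set made with GCRMA 2.20.0 (R 2.11.1), as the submitters' processing notes record. No other step is named in the sources. GCRMA shrinks dim signals, so folds near background depend on it.

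Of 45037 probe sets 34945 carried 1 symbol, and the brightest of these stood for its gene. The 12078 genes with at least 4 arrays at a log2 of 4 were fitted with limma 3.58.1 in R 4.3.3, with 1 mean per group and the spread shared over 16 arrays. Tests were two-sided, and p was adjusted by Benjamini-Hochberg over these genes (threshold 0.05). The code was tested on simulated data. The number of arrays, 4 a group, limits precision.

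The genes and lists were chosen with earlier results of these data known. Besides the 10 genes, up to 4 called genes with the smallest p in each list and a few fixed names could be named, of which not every one is printed, and the 5 genes most like Apoc3. The 9 motifs were looked at in a first screen of the same windows, and all are reported; the printed windows were then chosen. Bases inside annotated genes were left out of the printed windows. The pairwise comparisons were refitted under 30 other settings and the interaction under 29, among them each array left out in turn. The set without muscle arrays (Tnnt3 at a log2 of 8 or more) was known from earlier results. The set without liver-associated arrays (Apoa2 at a log2 of 5 or more) was chosen after seeing the data.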

Additional observations from a re-analysis of the deposited data

Results flagged for a closer look

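Single arrays lay apart from the rest of their group of 4, by Dixon's ratio, in 6 of 144 groups of 36 genes, where chance gives about 1 in 20. For Pltp, knockout low fat replicate 4 read 13.03 against 13.25 to 13.30 in the others. For Lpl, wild-type high fat replicate 1 read 13.10 against 13.35 to 13.39. Lrp2 read 5.43 in knockout low fat replicate 1, Sorl1 read 9.56 in wild-type high fat replicate 4, Lrp1 read 11.20 in wild-type high fat replicate 1, and Abca1 read 11.91 in knockout low fat replicate 4.

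The effect of diet differed between the genotypes (limma interaction, adjusted over all genes tested) for 10 of the related genes named. It was 2.51 for Apoc2 (adjusted p = 0.000321), 2.88 for Apoc4 (adjusted p = 0.00927), 2.19 for Npc1 (adjusted p = 0.000133) and -1.81 for Pcsk6 (adjusted p = 0.00117). It was 0.75 for Lrp1 (adjusted p = 0.00895), 1.01 for Mlxipl (adjusted p = 0.0175), -1.10 for Sorl1 (adjusted p = 0.0247) and 1.12 for Lipa (adjusted p = 0.0307). Nr1h3 gave 0.90 (adjusted p = 0.0399) and Clu -0.56 (adjusted p = 0.0491). For Apoc3 every knockout array lay below every wild-type array on the low fat diet and above on the high fat diet. The difference between these effects was 4.33, and no p is given for it because Apoc3 was chosen on these values.

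Of the 10 interactions, 3 (Apoc2, Npc1 and Pcsk6) still passed without the muscle arrays, 5 passed without the liver-associated arrays, and 6 passed whichever single array was left out. Single arrays ended the call for Sorl1 (1 array), Lipa (8), Clu (12) and Nr1h3 (12).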

How the results depend on the processing

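Of 45 differences of the 9 genes 6 changed sign under at least 1 setting, none of them past the threshold and the largest 0.27: diet in the knockout for Apoa1 and Lpl, knockout on the high fat diet for Apoe, and the interaction for Apoc1, Lpl and Pon1. No named call changed sign. Over 24 same-numbered pairs of arrays the correlation of deviations ran from -0.321 to 0.199, with 5 over 0.1. Differently numbered pairs were not computed for comparison, so whether replicate numbers pair the arrays is not decided. With the replicate block 2 of the 9 genes passed for the interaction instead of 1, and all genes passing numbered 1390 instead of 1569.

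Without the 5 muscle arrays all genes passing numbered 2567 instead of 4304 for diet in wild type, 2341 instead of 3523 for diet in the knockout, 845 instead of 2284 and 814 instead of 1818 for the knockout on the low and high fat diets, and 424 instead of 1569 for the interaction. The related genes passing were 15 instead of 24 for diet in wild type, 3 instead of 11 and 6 instead of 15 for the knockout on the low and high fat diets, and 3 instead of 11 for the interaction. Of the 9 genes 4 passed for diet in wild type and 1 for knockout on the low fat diet. Fewer arrays were fitted, and replicates 3 and 4 of wild-type low fat were among those left out. Without the liver-associated arrays 5 related genes and 2 of the 9 passed for the interaction.

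At a threshold of 0.01 the counts over all genes were 2733, 2059, 1060, 837 and 576 in the same order, the related genes 13 for diet in wild type, 7 and 9 for the knockout on the low and high fat diets and 5 for the interaction, and 1 of the 9 passed for knockout on the low fat diet. With the compared groups alone 15 related genes passed for diet in wild type; for knockout on the low fat diet 1292 genes, 6 related genes and 1 of the 9 passed. With array weights 5354 genes passed for diet in the knockout, 3424 and 2 of the 9 for knockout on the high fat diet, and 2481 and 3 of the 9 for the interaction. The mean of all probe sets gave 17 related genes for knockout on the low fat diet and 1 of the 9 on the high fat diet. With no filter 2 of the 9 passed for knockout on the low fat diet. The cause was not tested.

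With 1 array left out, all genes passing ran from 1426 to 3075 and 1084 to 2079 for the knockout on the low and high fat diets and from 1098 to 2382 for the interaction. The related genes ran from 15 to 24 for diet in wild type and from 7 to 11 for the interaction. Of the 9 genes 2 to 6 passed for knockout on the low fat diet and 1 to 3 for the interaction. Centring each array on its median moved the share of higher calls from 57.4% to 44.5% for diet in wild type, 61.7% to 47.5% for knockout on the low fat diet and 39.4% to 49.6% for the interaction. Array signals near background limit Apoa1, Pon1 and Apob, and among the related genes Ppara and Apoc4.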
